A study of Arabidopsis thaliana with 9 samples.

Results

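ATIM and SDS are 2 Arabidopsis genes of the chromosome cycle, 2 of the 13333 loci that the ATH1 array measured under a name here, and each was read by 1 of the 22746 probe sets tested. ATIM (AT5G52910, chromosome 5, probe set 248279_at) is the plant relative of Timeless, and SDS (SOLO DANCERS, AT1G14750, chromosome 1, probe set 262833_at) is a cyclin of meiosis. They were picked because they differed in opposite directions between the jmj24 mutant and wild type. That difference is therefore described below without a test. RefSeq (assembly TAIR10.1) lists 2 transcripts for ATIM, over a gene of 5794 bases, and 4 for SDS, over 3311 bases. The array annotation does not say which transcripts the probe sets read. Genome coordinates are left out, since no source used here ties the array to a genome build.

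RNA came from whole seedlings, 9 days old per the extraction protocol, while the growth protocol gives 10 to 14 days before analysis. The 9 arrays hold 3 genotypes with 3 arrays each. Wild type is Col-0. The jmj24 mutant is the stock-centre line N521260, a mutant of JMJ24 (AT1G09060), a jumonji-family gene. The 35S::JMJ24 line is a transformant that carries JMJ24 under the 35S promoter, a strong viral promoter active in most plant cells. The labels do not give the number of independent 35S::JMJ24 lines, name no other allele or treatment, do not give the ecotype of both lines, and do not say whether the arrays of a genotype came from separate cultures, so the spread between them may be technical. No probe set was paired with JMJ24 in the annotation used here, so the genotypes could not be checked on the targeted transcript. Each value is 1 probe set on 1 array, read as a log2 level.

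Timeless proteins are known in yeast and animals as parts of the fork protection complex. With the partner Tipin they travel with the replication fork, hold polymerase and helicase together when the fork stalls, pass the stall signal to the checkpoint kinases and help sister chromatids to stay joined. The name comes from a fly clock gene. SDS acts at another point of the chromosome cycle. In Arabidopsis it is needed in meiocytes of the flower for homologous chromosomes to pair and recombine, and its transcript is known mainly from those cells.

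ATIM was lowest in the mutant, highest in wild type and intermediate in 35S::JMJ24, an order of means that 20.8% of all probe sets had. Its log2 level was 10.28, 10.30 and 10.50 on wild-type arrays 1, 2 and 3, with a mean of 10.36 ± 0.122 (SD, n = 3). On the mutant arrays it was 8.93, 8.72 and 9.10, with a mean of 8.92 ± 0.190 (SD, n = 3). All 3 mutant values lay below all 3 wild-type values, with a gap of 1.18 between the groups.

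The mutant minus wild-type difference of ATIM was -1.44 on the log2 scale (SE 0.18, 95% interval of the limma fit -1.85 to -1.03), so the mutant level was 36.9% of the wild-type level. In this comparison 0.831% of all probe sets passed the test as lower in the mutant, and 8.47% lay wholly below wild type. Since ATIM was chosen on this comparison, its place among them carries no weight as support. It had the ninth-largest fall among the 110 named loci that passed as lower, between AT1G08310 (-1.44) and AT5G40180 (-1.29).

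In 35S::JMJ24 the ATIM level was 9.86, 10.21 and 9.42 on arrays 1, 2 and 3, with a mean of 9.83 ± 0.398 (SD, n = 3). These arrays differed among themselves more than those of the other genotypes. Array 2 lay 0.0653 below the lowest wild-type array, and array 3 lay 0.319 above the highest mutant array, so no genotype overlapped with another. All 3 genotypes were separated in this order in 0.598% of all probe sets. The SD within 35S::JMJ24 was larger than that of 98.7% of all probe sets in the same 3 arrays, against 60.3% for ATIM in wild type and 82.8% in the mutant.

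The 35S::JMJ24 minus wild-type difference of ATIM was -0.53 (SE 0.18, 95% interval -0.932 to -0.12), a level of 69.5% of wild type. It did not pass the test across all probe sets (limma, unadjusted p = 0.0165, Benjamini-Hochberg adjusted p = 0.607), although all 3 arrays lay below wild type. Such a separation downward held for 4.48% of all probe sets, and 0.00879% passed the test as lower. The same wild-type arrays served to choose the gene, so this p is not independent of the choice. Without 35S::JMJ24 array 3 the difference was -0.32 (adjusted p = 0.594).

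SDS had the reverse order of genotype means, which 21% of all probe sets had, and lay near the background of the array. Its log2 level was 5.25, 5.004 and 5.36 on wild-type arrays 1, 2 and 3, with a mean of 5.21 ± 0.183 (SD, n = 3). On the mutant arrays it was 5.77, 5.98 and 6.15, with a mean of 5.97 ± 0.192 (SD, n = 3). The groups did not overlap, and the lowest mutant array lay 0.406 above the highest wild-type array.

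The mutant minus wild-type difference of SDS was 0.76 (SE 0.148, 95% interval 0.428 to 1.09). No linear fold is given, because every wild-type array lay below the brightest of the bacterial controls described below. In this comparison 0.308% of all probe sets passed the test as higher in the mutant, and 7.49% lay wholly above wild type. As with ATIM, the choice of the gene used this comparison. By size SDS was the seventh of the 36 named loci that passed as higher, between AT5G01940 (0.79) and AT2G15630 (0.75), and by adjusted p it was 34th. The threshold for passing was an adjusted p of 0.05 by limma, where the last named locus inside was AT5G09480 (0.37) and the first outside was AT4G40045 (-0.42).

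In 35S::JMJ24 the SDS level was 5.95, 5.60 and 5.46 on arrays 1, 2 and 3, with a mean of 5.67 ± 0.253 (SD, n = 3). All 3 lay above wild type, by 0.0933 at the nearest point, which held upward for 7.25% of all probe sets. Array 1 reached into the range of the mutant. The difference from wild type was 0.46 (SE 0.148, 95% interval 0.131 to 0.796) and did not pass the test (limma, unadjusted p = 0.0115, adjusted p = 0.577), again with wild-type arrays that served to choose the gene.

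**Figure D1:**
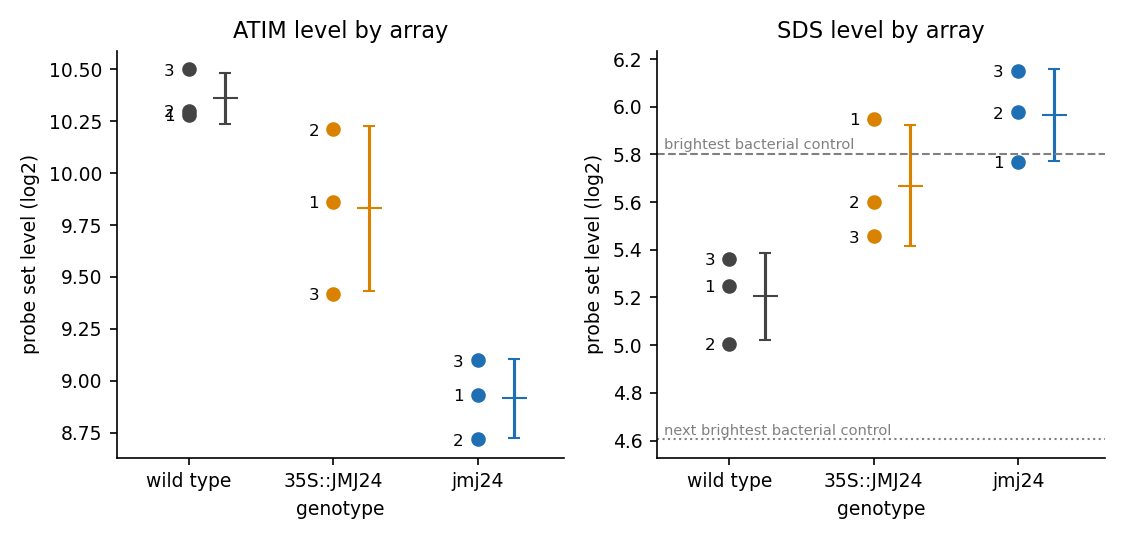
Log2 level of the ATIM and SDS probe sets on each of the 9 arrays, by genotype, with the replicate number beside each point and the mean ± SD (n = 3) to the right; the axes do not start at 0 and differ between panels. ATIM steps down from wild type to 35S::JMJ24 to the mutant, while SDS steps up and lies near the brightest bacterial control (dashed line, 5.80), with the next one dotted (4.61).

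The dim signal of SDS limits what its difference means in size. The array carries 27 probe sets for bacterial transcripts of the dap, lys, phe, thr and trp genes, which should find no partner in plant RNA. Their means over the arrays had a median of 3.71, and the brightest (5.80, from 5.58 to 6.10 by array) stood well apart from the other 26, of which the highest was 4.61. SDS exceeded 26 of the 27 on every wild-type array and all 27 on every mutant array. In 35S::JMJ24 it exceeded all 27 on array 1 and 26 on arrays 2 and 3. SDS thus lay above nearly all of these controls in each genotype and below the brightest of them in wild type. The deposited table holds no detection call. ATIM lay at least 2.92 above the mean of the brightest control on every array.

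Set directly against each other, the mutant and 35S::JMJ24 differed by -0.91 in ATIM (SE 0.18, 95% interval -1.32 to -0.508), so the mutant held 53.1% of the level of 35S::JMJ24. These groups did not overlap, which held downward for 7.14% of all probe sets, and 0.22% passed the test as lower in the mutant. In SDS the difference was 0.30 (SE 0.148, 95% interval -0.0357 to 0.629) and the groups overlapped. No test is given, since the mutant arrays served to choose both genes. Without the 3 arrays numbered 1 the SDS difference was 0.54, without 35S::JMJ24 array 3 alone it was 0.19, and without mutant array 3 alone 0.20.

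**Figure D2:**
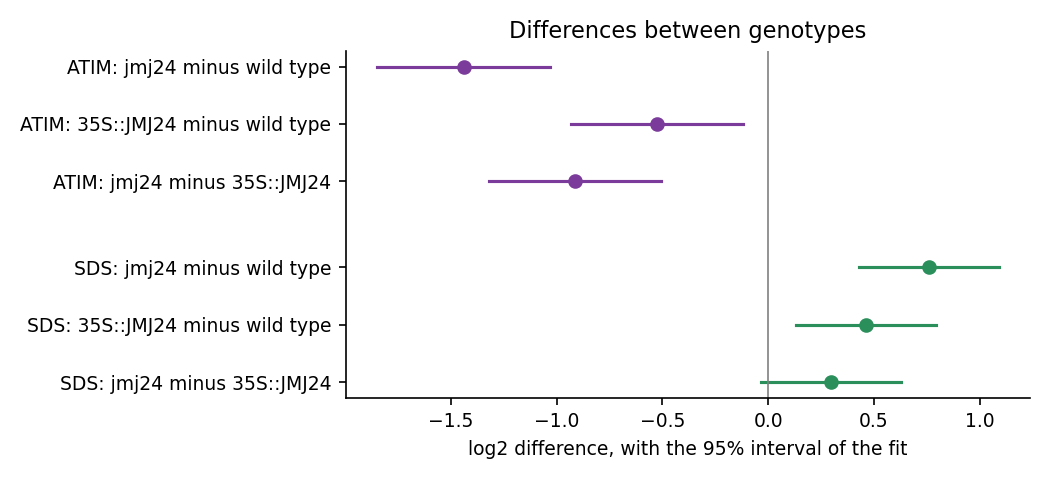
Log2 differences between genotypes for ATIM and SDS (points) with the 95% interval of the limma fit to all 9 arrays (lines). The ATIM points are at -1.44, -0.53 and -0.91 and the SDS points at 0.76, 0.46 and 0.30; both genes were picked for the mutant minus wild-type difference, so these intervals show width and are no test.

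One measure of RNA quality moved in the same order as the genotypes. For 3 control transcripts in a set of actin, GAPDH and ubiquitin probe sets, the 3-prime minus 5-prime signal was 2.81 ± 0.0341 in wild type, 2.77 ± 0.00177 in 35S::JMJ24 and 2.72 ± 0.0309 in the mutant (log2, SD, n = 3). In the older set of probe sets for the same transcripts it was 4.0 ± 0.0348, 3.96 ± 0.0718 and 3.97 ± 0.0431, with overlapping ranges. Their part in the ATIM and SDS differences was not tested. In bulk tissue, fewer cells of a type and less RNA per cell cannot be told apart. The median difference over all probe sets was 0.00609 for the mutant and 0.0202 for 35S::JMJ24, each against wild type, and pairs of arrays correlated across probe sets at 0.9918 to 0.9976.

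The genes listed for fork protection and cohesion showed no difference of the size of ATIM's, but ATIM was picked on the mutant comparison. In these lists a locus counts as measured where a probe set names that gene alone and matches a RefSeq locus. In the annotation used here 8730 probe sets are unnamed and 503 name several genes, so other listed loci may still be on the array. Of 25 loci listed for fork protection and cohesion, 8 others were measured under a name. In the mutant 0 of these 8 passed by limma (1.14% of all probe sets did), and 1 had an unadjusted p under 0.05 (11.7% of all). Their differences ran from -0.21 to 0.16, with a median of -0.0598 against 0.00609 for all probe sets. The RefSeq table gives these 8 loci no gene name, so they appear by locus. AT5G47690 was -0.19 (unadjusted p = 0.0449, adjusted p = 0.411), AT1G77600 was -0.19 (adjusted p = 0.477) and AT5G51340 was -0.21 (adjusted p = 0.521). AT3G02820, entered in the list as TIPIN, was 0.05, with mutant arrays from 7.92 to 7.94 and wild-type arrays from 7.78 to 8.01. AT3G42660 was -0.07, with mutant arrays from 8.65 to 8.68 inside the wild-type range of 8.62 to 8.90.

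In 35S::JMJ24, 0 of the same 8 passed by limma (0.0176% of all probe sets did) and 1 had an unadjusted p under 0.05 (7.43% of all). The smallest p belonged to AT1G15940 (0.18, unadjusted p = 0.0339, adjusted p = 0.644), the 1 locus of the 8 whose arrays did not overlap with wild type, where 11.7% of all probe sets did not. AT3G02820 was 0.15 (adjusted p = 0.685) and AT1G80810 was 0.15 (adjusted p = 0.716). Between the mutant and 35S::JMJ24, 7 of 8 had a lower mean in the mutant, with a median of -0.083 against -0.0167 for all probe sets. None passed by limma (0 with an unadjusted p under 0.05). AT3G02820 was the 1 of the 8 without overlap, with mutant arrays from 7.92 to 7.94 and 35S::JMJ24 arrays from 7.95 to 8.15. Such a separation downward held for 7.14% of all probe sets. The lowest was AT5G51340 (-0.22, adjusted p = 0.847).

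The replication machinery, where ATIM's relatives act, was measured through 6 of 50 listed loci, and 0 passed by limma in any of the 3 comparisons (0 at an unadjusted p under 0.05). A further list by words in gene names held POLH, described with the processing. In the mutant the median was -0.00839. POLD3, a subunit of DNA polymerase delta, was 0.11. ICU2, the catalytic subunit of DNA polymerase alpha, was -0.09. PRL, the MCM7 subunit of the replicative helicase, was -0.05, and TOPII, a topoisomerase that untangles replicated DNA, was -0.01. PSF2, of the GINS complex that rides with the helicase, had levels of 9.17 ± 0.0403 in the mutant and 9.17 ± 0.00735 in wild type. In 35S::JMJ24 the median was 0.00583, with TOPII at 0.13 (adjusted p = 0.755) and AT5G26680 at 0.19 (adjusted p = 0.689), the latter below the brightest bacterial control.

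The checkpoint and DNA repair genes gave 3 measured loci of 23, with 0 passing by limma in any comparison (0 at an unadjusted p under 0.05). In the mutant ATLIG4, the ligase of end joining, was 0.10, RAD9, a part of the clamp that loads at damage, was 0.13, and AT1G52530 was 0.11 (adjusted p from 0.761 to 0.844). In 35S::JMJ24 they were 0.06, 0.12 and -0.04. Each overlapped with wild type in both lines. RAD9 had means of 5.657 in wild type, 5.778 in 35S::JMJ24 and 5.785 in the mutant, under the mean of the brightest bacterial control (5.802).

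The other meiotic genes measured did not show the SDS difference either, but SDS was picked on the mutant comparison. Of 42 listed loci, 9 besides SDS were measured, 3 of them above the brightest bacterial control. In the mutant 0 of 9 passed by limma (1.14% of all probe sets did) and 1 had an unadjusted p under 0.05 (11.7% of all). Of the 9, 5 had a higher and 4 a lower mean, and the median was 0.0135. AT1G12790 came nearest, at 9.49 ± 0.0388 in the mutant and 9.29 ± 0.089 in wild type, a difference of 0.20 (unadjusted p = 0.013, adjusted p = 0.253) with no overlap. Between these genotypes 16% of all probe sets did not overlap. ZYP1b, of the synaptonemal complex, was 0.29 (adjusted p = 0.564), and its mutant arrays (4.89 to 5.44) overlapped with wild type (4.71 to 5.30). Genes for the meiotic break machinery lay within the range of the bacterial controls, with wild-type levels of 3.58 for ATSPO11-1, 3.65 for SPO11-2 and 4.55 for DFO.

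In 35S::JMJ24, 0 of the 9 passed by limma (0 with an unadjusted p under 0.05), with a median of 0.0687. ZYP1b was 0.32 (adjusted p = 0.695), DFO was 0.18 (adjusted p = 0.703) and FANCM, a helicase that limits crossovers, was -0.13 (adjusted p = 0.748). Between the mutant and 35S::JMJ24 DFO had the smallest p (-0.26, unadjusted p = 0.0322, adjusted p = 0.718), AT1G12790 was 0.14 (adjusted p = 0.834), and ATMND1, which helps strands to invade the homologue, was -0.12 (adjusted p = 0.884).

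Among cyclins, their kinases and inhibitors, 62 loci were listed and SIM was the 1 measured under a name besides SDS. SIM inhibits cyclin-dependent kinases in cells that leave division. Its level was 9.98 ± 0.0232 in wild type, 10.11 ± 0.0632 in 35S::JMJ24 and 10.12 ± 0.0394 in the mutant. The differences from wild type were 0.14 in the mutant (unadjusted p = 0.0442, adjusted p = 0.408) and 0.13 in 35S::JMJ24 (unadjusted p = 0.061, adjusted p = 0.671), neither passing by limma. SIM did not overlap with wild type in either line, where 16% of all probe sets did not in the mutant and 11.7% in 35S::JMJ24. Of 25 loci for mitosis and cell-cycle transcription factors 4 were measured, and 0 passed in any comparison by limma (0 at an unadjusted p under 0.05). AUR1, AUR2 and AUR3, the Aurora kinases of mitosis, were -0.13, -0.06 and 0.07 in the mutant. Their values in 35S::JMJ24 were -0.06, -0.01 and -0.06. HTR12, the centromeric histone, was -0.11 and -0.08.

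Over these 6 lists, which hold 225 loci, 31 besides ATIM and SDS were measured. In the mutant 0 of 31 passed by limma, against 1.14% of all probe sets, and 3 had an unadjusted p under 0.05, against 11.7%. Their arrays did not overlap with wild type in 2 of 31, against 16% of all probe sets. The widest difference among the 31 was 0.29 in the mutant and 0.32 in 35S::JMJ24, both in ZYP1b. In 35S::JMJ24 0 of 31 passed by limma (0.0176% of all probe sets did), 1 had an unadjusted p under 0.05 (7.43% of all) and 3 did not overlap with wild type (11.7% of all). Between the mutant and 35S::JMJ24 0 of 31 passed by limma (0.246% of all did), with 1 at an unadjusted p under 0.05 where 6.33% of all were. The median of the 31 was -0.00232, 0.0136 and -0.0269 in the 3 comparisons.

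**Figure D3:**
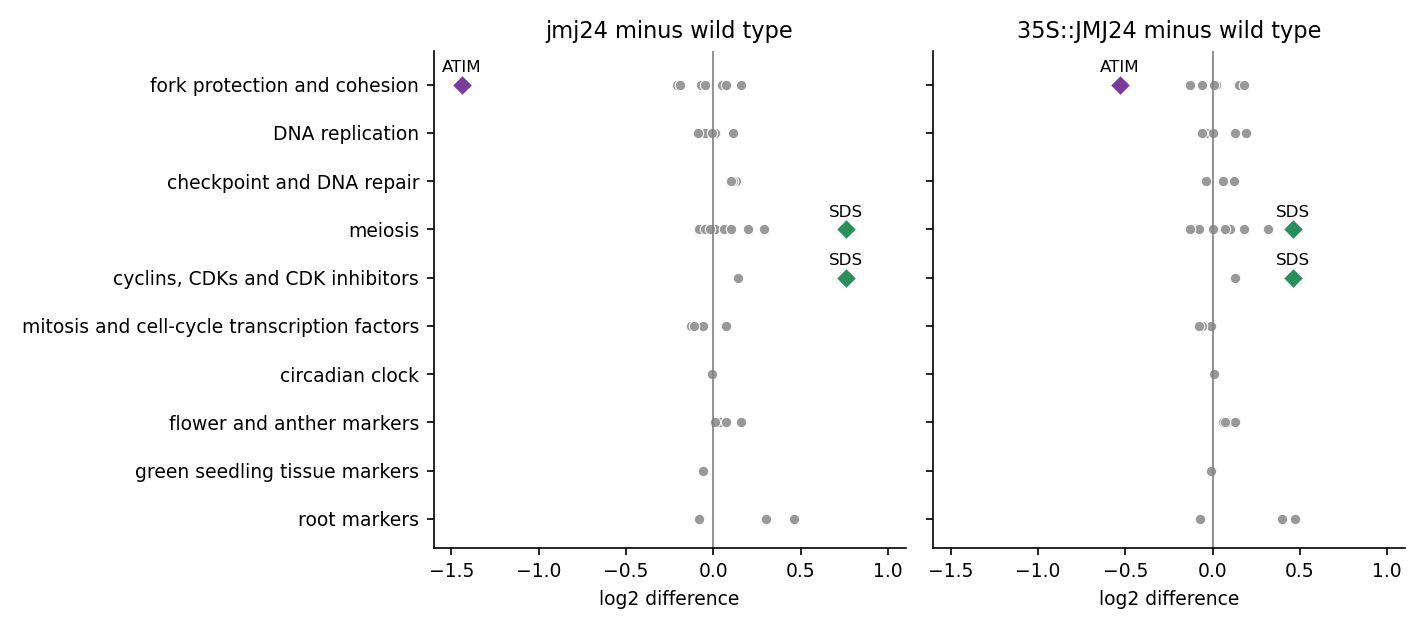
Log2 differences from wild type of every measured locus of the 10 gene lists (grey circles), with ATIM and SDS as diamonds, for the mutant (left) and 35S::JMJ24 (right); SDS belongs to the meiosis and the cyclin lists. The 31 other chromosome-cycle loci lie between -0.21 and 0.29 in the mutant, inside the ATIM and SDS values of -1.44 and 0.76. ATIM and SDS were picked on the mutant comparison, so their place outside that range carries no weight as support.

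Because animal Timeless is named for the clock, a clock list was included. Of 17 loci GI, which times flowering and clock output, was the 1 measured under a name, with a level of 10.11 in wild type and differences of -0.01 and 0.01. Markers for tissues were set beside SDS, since SDS is known from flowers. Of 15 flower and anther markers 4 were measured, and in wild type SPL was at 3.68, AMS at 5.54, AT5G07230 at 5.51 and EMS1 at 5.93. EMS1, the receptor that sets the number of pollen mother cells, was the 1 with a mean above the brightest bacterial control. The 4 had a median of 0.0545 in the mutant and 0.0775 in the other line, and none passed by limma (0 with an unadjusted p under 0.05). All 4 means were higher than in wild type in both lines, by 0.01 to 0.16, and their part in the SDS difference was not tested. Seedling tissue was evident from RCA, which activates Rubisco, at 13.54 in wild type (1 of 8 green tissue markers measured), and from the root protein PYK10 at 13.58, which differed by -0.08 in the mutant and -0.07 in 35S::JMJ24. The root hair expansins EXPA7 and EXPA18, the other measured root markers of 7 listed, were 0.30 and 0.46 in the mutant, while 35S::JMJ24 had 0.40 and 0.47 (adjusted p from 0.332 to 0.623). EXPA18 did not overlap with wild type in either line, and neither did RCA, at -0.06 in the mutant and -0.01 in 35S::JMJ24. Of all probe sets 16% did not overlap in the mutant and 11.7% in 35S::JMJ24. Of the 3 root markers 0 passed by limma, with 1 in the mutant (11.7% of all probe sets) and 2 in 35S::JMJ24 (7.43%) at an unadjusted p under 0.05, and their part in the results was not tested.

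The loci beside ATIM on chromosome 5 showed no difference of its size, but ATIM was picked on the mutant comparison. The 10 nearest measured loci, 5 on each side in RefSeq order, had differences from -0.15 to 0.04 in the mutant, and none passed by limma (0 with an unadjusted p under 0.05). AT5G52890, the nearest measured on one side, was 0.04, and AT5G52950, the nearest on the other, was -0.15 (SE 0.203). In 35S::JMJ24 the 10 ran from -0.16 to 0.09, with AT5G52890 lowest (-0.16, unadjusted p = 0.023, adjusted p = 0.623). In the same order the others were AT5G52820, AT5G52840, AT5G52850 and AT5G52880 before ATIM, and AT5G52960, AT5G52970, AT5G52975 and AT5G52980 after it.

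Around SDS on chromosome 1 the 10 nearest measured loci ran from -0.31 to 0.18 in the mutant and, in 35S::JMJ24, from -0.24 to 0.32; 0 passed by limma in either. At an unadjusted p under 0.05 there was 1 in the mutant (11.7% of all probe sets) and 4 in 35S::JMJ24 (7.43%). Of the 10, 2 did not overlap with wild type in the mutant (16% of all) and 4 in 35S::JMJ24 (11.7%). AT1G14770, the nearest measured after SDS, differed the other way from SDS, at -0.31 (adjusted p = 0.177) and -0.24 (adjusted p = 0.623). AT1G14780, the next, was 0.16 and 0.32 (adjusted p = 0.521 and 0.503). AT1G14730, the nearest before SDS, was -0.16 and -0.06. AT1G14680 was 0.18 and 0.29 (adjusted p = 0.566 and 0.623), and AT1G14820 was 0.07 and 0.16 (adjusted p = 0.745 and 0.655). The remaining 5, AT1G14650, AT1G14670, AT1G14710, AT1G14800 and AT1G14810, lay between -0.08 and 0.12 in both.

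**Figure D4:**
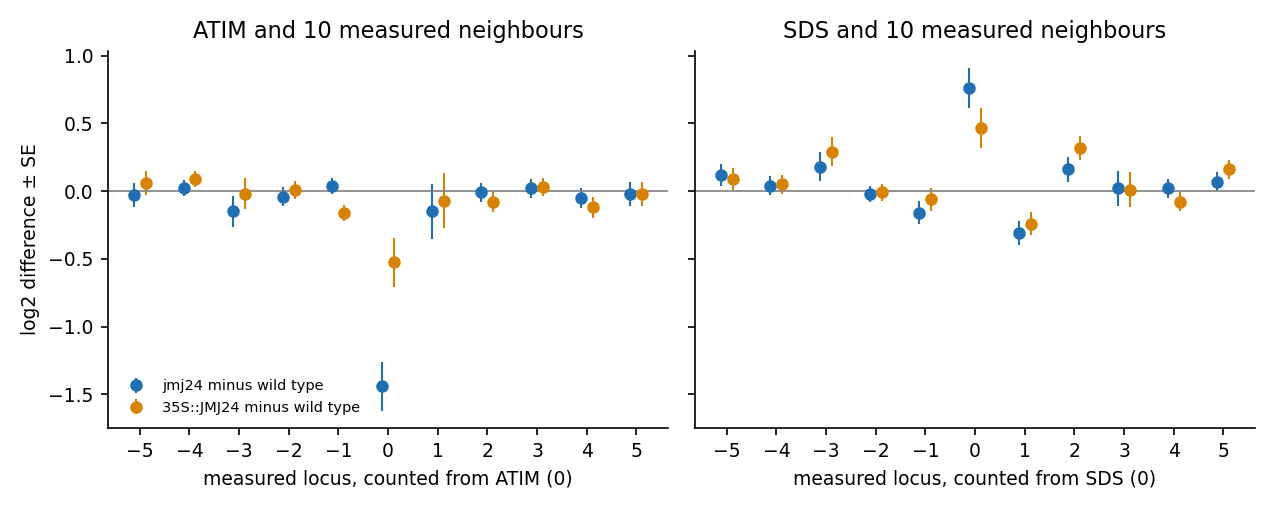
Log2 differences from wild type (± SE of the limma fit) for ATIM, SDS and the 5 nearest measured loci on each side, in RefSeq order along the chromosome; loci not measured under a name are skipped. The 10 neighbours of ATIM stay between -0.16 and 0.09 in both lines, and those of SDS between -0.31 and 0.32 with signs of both kinds.

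The genes with the pattern most like each of the pair were named by the root mean square difference over the 9 arrays, after each probe set was centred on its own mean. The 13482 other probe sets with a matched locus were ranked. The arrays share the genotype steps, and the loci were picked on the same values, so their differences are given as a description with no test. Nearest to ATIM was AT1G08310, with a difference of 0.184, where the median over all candidates was 0.643 and a flat profile had 0.633. Its levels were 8.76, 9.33 and 9.10 in wild type, 8.52, 8.78 and 8.27 in the 35S::JMJ24 line, and the mutant arrays had 7.60, 7.23 and 8.04. As in ATIM, array 2 was highest and array 3 lowest within 35S::JMJ24.

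AT5G45310 (0.194), AT1G24575 (0.229), AT5G02580 (0.238) and AT2G40570 (0.239) followed. All 5 lay lower in the mutant, with differences from -1.66 to -1.0. In 35S::JMJ24 they ran from -0.54 to -0.17. None of these 5 carries a gene name in the RefSeq table, and they lie on chromosomes 1, 2 and 5.

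Nearest to SDS was AT1G24420, with a difference of 0.169 against a median of 0.368 and 0.357 for a flat profile. Its levels were 4.82, 4.55 and 4.78 in wild type, 5.18, 4.69 and 4.75 in the 35S::JMJ24 line, and 5.11, 5.27 and 5.20 for mutant seedlings, each under the brightest bacterial control. AT3G17280 (0.174), AT4G37900 (0.174), UGT76B1 (0.176) and AT5G47740 (0.178) followed. AT3G17280 also lay under the brightest bacterial control, with means of 4.04 in wild type, 4.25 in 35S::JMJ24 and 4.60 in the mutant. UGT76B1, a glucosyltransferase that tunes salicylic acid defence, was 0.36 in the mutant. The other 4 ran from 0.48 (AT1G24420) to 0.70 (AT4G37900) there, and all 5 ran from 0.16 to 0.40 in 35S::JMJ24. Without the arrays numbered 1, 0 of these 5 were among the nearest 5, against 3 of 5 for ATIM.

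**Figure D5:**
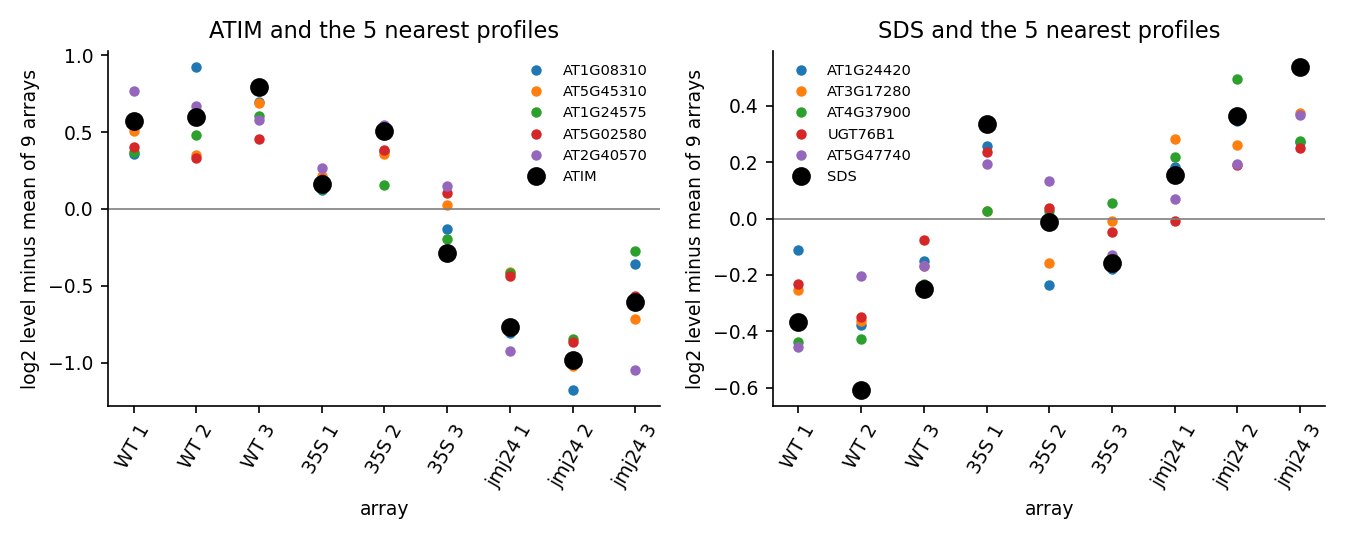
Log2 level minus the mean of the 9 arrays, for ATIM and SDS (large black points) and the 5 loci with the smallest root mean square difference to each; 35S stands for 35S::JMJ24 and WT for wild type. The ATIM group steps down from wild type to the mutant, and the SDS group steps up over a smaller range.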

How the data were processed

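Expression was measured on 9 ATH1 arrays, with 22810 probe sets in the deposited table. Per the submitters' processing notes, the authors used affy; its version and settings are not given in the sources used. No source names the scale. The deposited values run from 2.634 to 14.7 with array medians of 7.826 to 7.873 and were read as log2; every fold change rests on that reading. Depth has no counterpart here, and the number of arrays limits precision (median SE 0.0923, log2).

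After 64 array controls were left out, limma 3.58.1 in R 4.3.3 fitted 1 mean per genotype to the 22746 other probe sets on all 9 arrays (6 residual and 3.335 prior degrees of freedom). Tests were two-sided, with Benjamini-Hochberg adjustment over all probe sets and a threshold of 0.05. The fit was tested on simulated data with known changes and independent noise on each array. Those data hold no link between same-numbered arrays, so they do not show how the fit behaves with one. Groups came from sample titles. For the mutant against 35S::JMJ24 all 3 same-numbered pairs deviated together (r = 0.1707 to 0.4269), a hint of pairing from the data and not from the labels; a replicate block gave 76 calls there against 56.

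Of 13513 probe sets that name 1 gene in the platform annotation, 13484 matched a RefSeq locus (TAIR10.1); 503 name several and 8730 are unnamed here. Where several probe sets matched 1 locus, the one with the highest mean stood for it. Named loci are ATIM and SDS, up to 4 of each list by smallest p per comparison, 5 measured neighbours on each side, the 5 nearest profiles, and a few fork and meiosis genes where measured; a few other list members are given for their role. The members, lists and tests were chosen with earlier results of these data known. Further lists by words in gene names (cyclin, meiosis, cohesion and centromere, replication, repair) had 3 measured loci besides SDS, since the gene table has no descriptions and its synonyms were searched: EME1A (-0.03), HTR12 (-0.11) and POLH (-0.29, adjusted p = 0.185) in the mutant, none passing by limma (1 at an unadjusted p under 0.05, where 11.7% of all probe sets were). That 1 was POLH (unadjusted p = 0.00631), which was -0.16 in 35S::JMJ24 (adjusted p = 0.681). Its arrays ran from 7.35 to 7.51 in the mutant, 7.55 to 7.59 in 35S::JMJ24 and 7.62 to 7.89 in wild type. The genotypes were thus separated in the order of ATIM, as in 0.598% of all probe sets. Sequences were not used here.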

Additional observations from a re-analysis of the deposited data

How the results depend on the processing

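The ATIM and SDS differences kept their direction under every alternative run: 2 genotypes per fit, renewed quantile normalization, the dimmer 50% of probe sets left out (which leaves out SDS), a replicate block, array weights, each array left out, the arrays numbered 1 left out, array controls kept, and a variance trend. Where groups did not overlap, leaving arrays out could not turn the sign. The fits with 2 genotypes, a replicate block, array controls kept or a variance trend leave the difference itself unchanged. Both genes were also picked on the mutant difference, so the kept direction is no separate support. With arrays left out, ATIM ran from -1.53 to -1.34 (mutant minus wild type), -0.72 to -0.32 (35S::JMJ24 minus wild type) and -1.12 to -0.72 (mutant minus 35S::JMJ24), and SDS from 0.66 to 0.88, 0.32 to 0.57 and 0.19 to 0.54. For 35S::JMJ24 minus wild type the adjusted p stayed between 0.252 and 0.88 for ATIM and between 0.195 and 0.891 for SDS. Deviations of same-numbered arrays correlated at 0.01429 to 0.4377 (7 of 9 pairs over 0.1, none negative) and those of differently numbered arrays at -0.5268 to 0.2708 (12 of 18 negative). Deviations within a genotype cancel by construction, so positive values in some pairs bring negative ones in others. The negative count is therefore no separate sign of pairing. Both pairs of number 2 with wild type were under 0.1, so pairing was not taken as shown against wild type. With the replicate block ATIM in 35S::JMJ24 had an adjusted p of 0.381 and SDS 0.337. Probe sets called were 259, 4 and 56 for the mutant and for 35S::JMJ24, each against wild type, and for the mutant against 35S::JMJ24. The first count was 607 with the replicate block, 641 with array weights, 146 with 2 genotypes in the fit, and 53 to 229 with arrays left out (53 without the arrays numbered 1, and 124 to 159 without mutant 2 or 3 or any 1 wild-type array). The second was 8 with array weights and 1 to 4 with arrays left out (1 without the arrays numbered 1, 2 without 35S::JMJ24 1 or 2 or wild type 2). The third was 19 with 2 genotypes in the fit and 2 to 44 with arrays left out (2 without the arrays numbered 1, and 14 to 34 without mutant 2 or 3, any 1 35S::JMJ24 array or wild type 2). The cause of these shifts was not tested. No list member besides ATIM and SDS passed by limma in any alternative (0 of 40 in each comparison, or 0 of the 21 left without the dimmer probe sets; with all 9 arrays and no change 4, 3 and 1 at an unadjusted p under 0.05). Over all probe sets the shares at that unadjusted threshold were 11.7%, 7.43% and 6.33%. Of 2979 values of 60 list and neighbour loci, 20 moved by more than the spread between replicates, and 187 values of uncalled loci changed sign. Of the 5 profiles nearest to SDS, 3 remained after quantile normalization, 2 by Pearson correlation and 0 without the arrays numbered 1. Of those nearest to ATIM 2 remained by Pearson correlation, 3 without the dimmer probe sets and 3 without the arrays numbered 1.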

Other observations

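By Pearson correlation over the 9 arrays AT1G14890 was among the 5 loci closest to SDS (r = 0.904, a description with no test, over arrays that share the genotype steps). It was chosen after its values were seen. It lies 17 loci beyond SDS in the RefSeq order of chromosome 1, and its log2 level was 9.51 ± 0.142 in wild type, 9.74 ± 0.136 in 35S::JMJ24 and 9.97 ± 0.161 in the mutant (SD, n = 3). The differences from wild type were 0.46 in the mutant and 0.22 in 35S::JMJ24, given with no test.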
